A study of Mus musculus with 4 samples.

Results

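The 10 genes described here act in the making and carriage of cholesterol. They were chosen by name, with earlier results of these data known. Every probe set that the platform annotation assigns to them was used, 17 in all. They are 10 of 12393 genes on the array and 10 of the 8036 genes called measured, which means a mean scaled signal of at least 100. The enzymes fall into 3 early ones, which act before squalene (Pmvk, Mvd and Idi1), and 6 late ones, which act from squalene onwards (Sqle, Cyp51, Msmo1, Hsd17b7, Sc5d and Dhcr7). Stard4, the tenth gene, encodes a carrier of cholesterol. The RNA came from the intestinal mucosa of male mice aged 10 weeks, of the inbred strains A/J and C57BL/6J, after 2 weeks on a high-fat or a low-fat diet. The 4 groups were A/J on high-fat, A/J on low-fat, C57BL/6J on high-fat and C57BL/6J on low-fat, with 6 mice in each. For each group, RNA from 2 mice whose weight was average was combined and hybridised to 1 Affymetrix array, so no group has a replicate array. The pools hide the spread between mice, and neither the part of the intestine nor the composition of the diets is given in the sources used here.

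Cholesterol is built from acetyl-CoA through mevalonate and isoprenoid diphosphates to squalene, which is oxidised, closed to a ring and trimmed in many steps. The genes of the pathway share a main activator, the membrane-bound factor SREBP-2, which is released when sterols in the membrane run low and held back when they are plentiful. The small intestine takes up cholesterol from food and bile and is also known as a major site of its synthesis.

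Signals were scaled so that the trimmed mean of each array was 500, and all values are on that scale. Because each probe set binds with its own strength, signals were compared between arrays and not between genes. Each gene was represented by its brightest probe set, and all 10 genes had signals above the floor of 100 on all 4 arrays. Over all measured genes, the median absolute log2 ratio was 0.21 for high-fat over low-fat in either strain, and 0.24 on high-fat and 0.29 on low-fat for A/J over C57BL/6J. The summed signal of 4 enterocyte markers (Vil1, Fabp2, Apob and Mttp) lay between 64755 and 69156 on the 4 arrays, and none of them differed by 1.5-fold in any comparison. Markers of other tissues did move. The summed signal of 6 exocrine pancreas genes was 1530.2 on A/J high-fat against 57593 on A/J low-fat, while C57BL/6J had 87453 on high-fat against 56921 on low-fat. For 3 stomach surface genes it was 1137 on A/J high-fat against 2586 on A/J low-fat, while C57BL/6J had 8186 on high-fat against 1322 on low-fat. For 4 T cell markers it was 1035 on A/J high-fat against 876 on A/J low-fat, while C57BL/6J had 908 on high-fat against 1582 on low-fat. A 5' probe set of the 18S ribosomal RNA stood highest on C57BL/6J low-fat, at 11010, and lay between 84.4 and 1675 on the other arrays. Adipoq and Lep of adipocytes and Alb and Fgb of hepatocytes were under the floor on all 4 arrays. Ttr, also listed as a hepatocyte marker, was above the floor on A/J low-fat, at 108, and on C57BL/6J high-fat, at 206. It was under the floor on A/J high-fat, at 11.5, and on C57BL/6J low-fat, at 59.4. In pooled tissue, fewer cells of a type and less RNA per cell cannot be told apart.

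**Figure D1:**
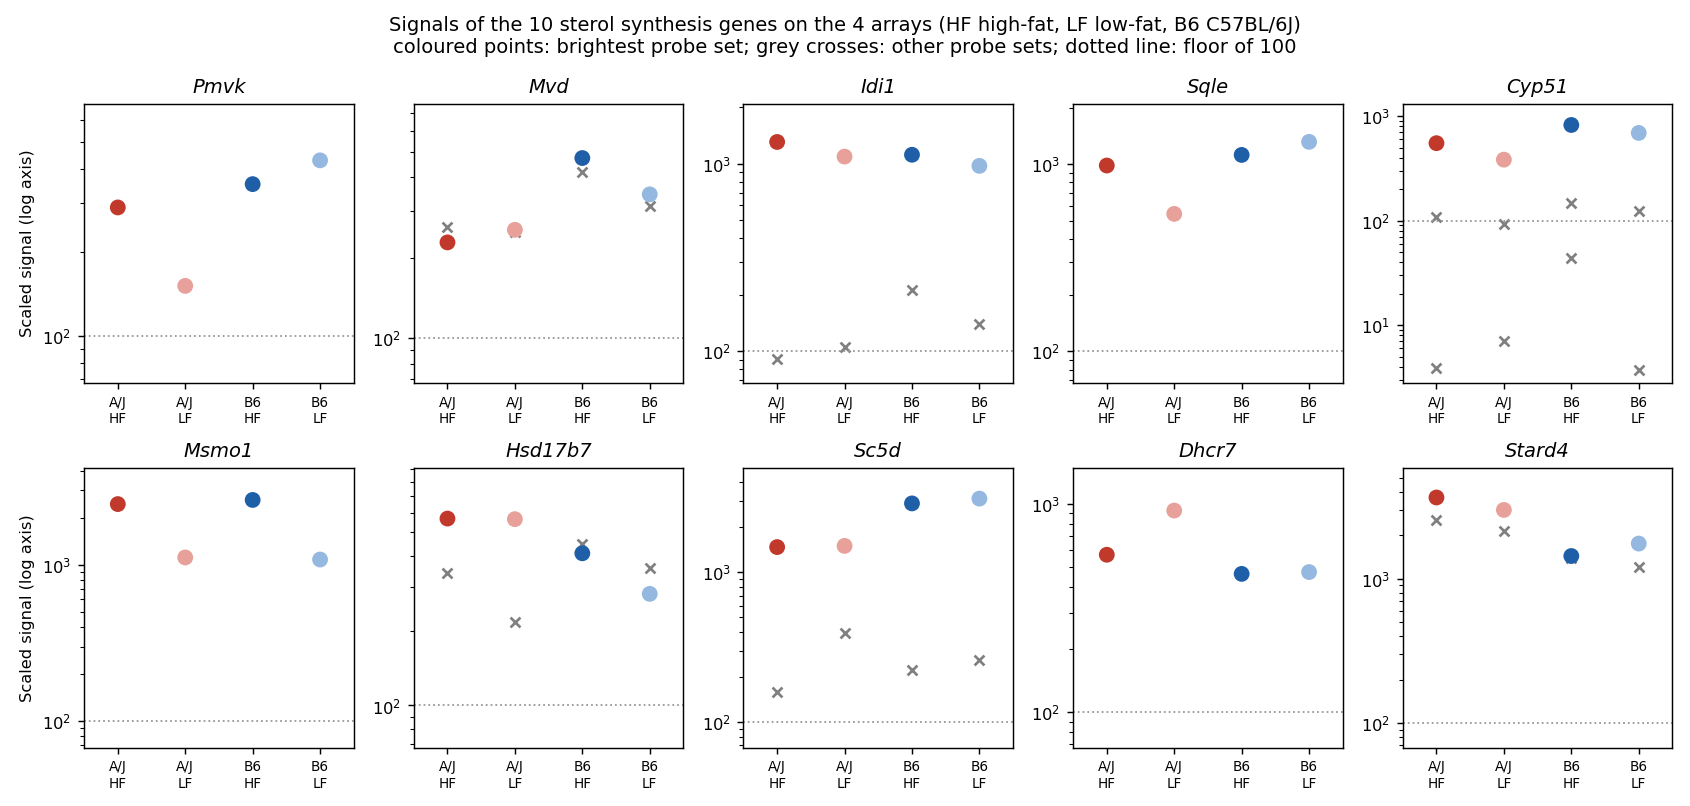
Scaled signal (log axis, own range per gene) of the 10 genes on the A/J high-fat, A/J low-fat, C57BL/6J high-fat and C57BL/6J low-fat arrays, 1 array each, with the brightest probe set in colour, the other probe sets as grey crosses and the floor of 100 dotted. Msmo1 stood at 2447 and 2601 on the high-fat arrays against 1114 and 1081 on the low-fat arrays, while Pmvk and Sqle were lowest on A/J low-fat.

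Msmo1 was the gene of the set that differed between the diets in both strains. It encodes the oxidase that starts the removal of the methyl groups at carbon 4 of the sterol ring. Its scaled signal was 2447 on A/J high-fat against 1114 on A/J low-fat, while C57BL/6J had 2601 on high-fat against 1081 on low-fat. The 2 high-fat arrays thus lay above the 2 low-fat arrays. The share of measured genes whose arrays separate by diet in this way was not counted, so the separation alone does not set Msmo1 apart. The Msmo1 ratio of high-fat over low-fat was 2.20-fold in A/J and 2.41-fold in C57BL/6J, and 0.473% and 0.523% of all measured genes had as high a ratio in those comparisons. A limma fit over all 4 arrays, with strain and diet as additive terms, gave a log2 diet effect of 1.20 with an SE of 0.195 (limma adjusted p = 0.0155). By that test 0.61% of measured genes changed, 0.423% rising on the high-fat diet and 0.187% falling, and of the 10 genes Msmo1 rose and 0 fell. At an unadjusted p under 0.05, limma also gave 1 of the 10 genes higher and 0 lower, where 391 of the 8036 measured genes were higher and 360 lower. The fit has 1 residual degree of freedom, and its error is the strain-by-diet difference, so its p-values do not measure a spread between pools or mice of one group. The call was lost with a floor of 50 (limma adjusted p = 0.126) or of 200 (limma adjusted p = 0.447), with no scaling (limma adjusted p = 0.0985) and with all probe sets of each gene averaged (limma adjusted p = 0.0834), while the effect itself lay between 1.10 and 1.24 in every alternative. Msmo1 has 1 probe set with all signals above 200, so neither floor nor averaging can change that effect.

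The promoters of Msmo1 and of 3 genes that the diet test did not call are shown so that the letters SREBP-2 is known to read can be compared. Each sequence is the 250 bases before the transcription start on the strand of the gene, from RefSeq on GRCm38.p6, the C57BL/6J reference. Capitals mark TCACNNCA, a loose form of the sterol regulatory element, and CCAAT, the box read by NF-Y, a factor that is known to act beside SREBP; both were searched on both strands, so CCAAT on the other strand reads ATTGG. The windows are chr8:64733579-64733828 on the minus strand for Msmo1, chr5:4104698-4104947 on the minus strand for Cyp51, chr9:42264301-42264550 on the minus strand for Sc5d and chr13:8885356-8885605 on the plus strand for Idi1.
Msmo1: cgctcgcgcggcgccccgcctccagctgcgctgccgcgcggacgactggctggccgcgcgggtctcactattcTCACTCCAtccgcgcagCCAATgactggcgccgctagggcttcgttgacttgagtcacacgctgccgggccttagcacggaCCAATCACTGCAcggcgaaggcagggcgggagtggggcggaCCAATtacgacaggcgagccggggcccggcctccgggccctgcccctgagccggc
Cyp51: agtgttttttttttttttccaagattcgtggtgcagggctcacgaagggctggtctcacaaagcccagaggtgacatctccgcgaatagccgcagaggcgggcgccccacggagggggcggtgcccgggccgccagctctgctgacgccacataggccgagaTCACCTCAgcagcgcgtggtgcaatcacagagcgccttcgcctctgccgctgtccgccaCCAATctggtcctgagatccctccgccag
Sc5d: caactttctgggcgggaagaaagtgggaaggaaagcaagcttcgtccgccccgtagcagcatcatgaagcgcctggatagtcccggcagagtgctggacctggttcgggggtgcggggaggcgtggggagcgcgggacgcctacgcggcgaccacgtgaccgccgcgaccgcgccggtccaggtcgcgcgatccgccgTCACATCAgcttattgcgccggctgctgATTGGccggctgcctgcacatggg
Idi1: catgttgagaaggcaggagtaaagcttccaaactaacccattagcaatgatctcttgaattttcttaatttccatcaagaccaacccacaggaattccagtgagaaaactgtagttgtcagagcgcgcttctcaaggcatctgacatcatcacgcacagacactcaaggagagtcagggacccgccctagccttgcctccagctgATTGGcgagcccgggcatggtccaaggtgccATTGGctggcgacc
Msmo1 held 2 matches of the loose element and 3 CCAAT boxes, and the element nearer to the start shares 1 letter with a CCAAT box. Cyp51 and Sc5d held 1 match of each, and Idi1 held 0 of the element and 2 CCAAT boxes. Among genes not shown, Hsd17b7 held 1 element and 3 CCAAT boxes in 1 window, and 1 of the windows of Dhcr7 held 1 element and 2 CCAAT boxes and another 1 element, though neither gene was called for diet. Of the 10 genes, 8 had a window in the table (Sqle and Stard4 had none), with 11 windows in all because Pmvk and Dhcr7 have several starts. The loose element was in 7 of these 11 windows, against 11.4% of all 32851 windows, and CCAAT in 8 of 11, against 33.85%. The strict form TCACNCCAC was in 0 of the 11 windows and in 1.05% of all. The loose form was chosen after the sequences had been read, and a match describes letters and shows no binding.

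By its brightest probe set, Pmvk was the early enzyme that differed by 1.5-fold with diet, in A/J. Pmvk, the kinase that adds the second phosphate to mevalonate, had a signal of 290.1 on A/J high-fat against 151 on A/J low-fat, while C57BL/6J had 352 on high-fat against 429 on low-fat. It was 1.92-fold higher on high-fat in A/J and 1.22-fold lower in C57BL/6J, and the A/J low-fat array stood apart below the other 3. Mvd, the decarboxylase that yields isopentenyl diphosphate, had 228 on A/J high-fat against 254 on A/J low-fat, while C57BL/6J had 473 on high-fat against 346 on low-fat. Its ratio was 1.37-fold higher in C57BL/6J and 1.12-fold lower in A/J, and in A/J its other probe set gave the opposite sign, at 1.04-fold higher. Idi1, the isomerase that makes dimethylallyl diphosphate, was the steadiest of the 3, with 1302 on A/J high-fat against 1089 on A/J low-fat, while C57BL/6J had 1113 on high-fat against 972 on low-fat. These are ratios of 1.20-fold in A/J and 1.15-fold in C57BL/6J, near the median absolute ratio of all genes. Its dimmer probe set was 1.51-fold higher on high-fat in C57BL/6J, at 212 on high-fat against 139.9 on low-fat. In A/J it was under the floor on high-fat, at 90.8, against 106 on low-fat.

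Among the late enzymes, by the brightest probe sets, Sqle followed Pmvk, Dhcr7 went the other way in A/J, and Sc5d differed little with diet. Sqle, the epoxidase that puts oxygen on squalene and is a known control point of the pathway, had 984 on A/J high-fat against 543 on A/J low-fat, while C57BL/6J had 1121 on high-fat against 1316 on low-fat. It was 1.81-fold higher on high-fat in A/J and 1.17-fold lower in C57BL/6J, again with A/J low-fat as the array that stood apart. Cyp51, which removes the methyl group at carbon 14 of lanosterol, had 551 on A/J high-fat against 384 on A/J low-fat, while C57BL/6J had 824 on high-fat against 691 on low-fat. Its ratio was above 1 in both strains, at 1.44-fold and 1.19-fold, and under 1.5-fold in both. Dhcr7, the reductase of the last step, had 570.1 on A/J high-fat against 929 on A/J low-fat, while C57BL/6J had 461 on high-fat against 471 on low-fat. It was 1.63-fold lower on high-fat in A/J, where 2.92% of measured genes were as low or lower, and 1.02-fold lower in C57BL/6J.

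Hsd17b7, the ketoreductase that works with Msmo1 in the removal of the methyl groups, had 568 on A/J high-fat against 565 on A/J low-fat, while C57BL/6J had 412 on high-fat against 282 on low-fat. Its ratio was 1.01-fold in A/J and 1.46-fold in C57BL/6J, both higher on high-fat. Its other probe set gave 1.58-fold higher in A/J and 1.25-fold higher in C57BL/6J, so the strain with the larger ratio depends on the probe set. Sc5d, the desaturase of the step before Dhcr7, had 1475 on A/J high-fat against 1502 on A/J low-fat, while C57BL/6J had 2887 on high-fat against 3108 on low-fat. Both ratios of that probe set were within 1.08-fold. The other Sc5d probe set was 2.45-fold lower on high-fat in A/J, with 159 on A/J high-fat against 391 on A/J low-fat, and 0.559% of the 2505 genes with 2 probe sets above the floor had probe sets that disagreed as much. With both averaged, Sc5d was 1.58-fold lower on high-fat in A/J. Stard4, the carrier that moves cholesterol between membranes, had 3664 on A/J high-fat against 3003 on A/J low-fat, while C57BL/6J had 1439.6 on high-fat against 1756 on low-fat. It was 1.22-fold higher on high-fat in A/J and 1.22-fold lower in C57BL/6J, but its other probe set was 1.17-fold higher in C57BL/6J.

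Counted together, in A/J the high-fat array exceeded the low-fat one by 1.5-fold or more for 3 of the 10 genes (Pmvk, Sqle and Msmo1) and lay below it by as much for 1 (Dhcr7), where 4.99% of measured genes were higher and 4.7% lower, 9.69% in all. In C57BL/6J 1 was higher (Msmo1) and 0 lower, against 5.13% higher and 4.63% lower among measured genes, 9.76% in all. There is no test between 1 array and 1 array. For A/J the 10 genes had a median log2 ratio of 0.27, and for C57BL/6J of 0.08, against 0.01 and -0.01 over all measured genes. By position in the pathway, the medians in A/J were 0.26 for the 3 early enzymes and 0.27 for the 6 late ones, and in C57BL/6J they were 0.20 and 0.11. Without Msmo1 the late enzymes had a median of 0.01 in A/J and of -0.03 for C57BL/6J. In the limma fit the median diet effect was 0.29 for the late enzymes, 0.28 without Msmo1, and 0.23 for the early ones, so the order of early and late depended on the measure. The difference between the strains in the diet ratio was largest among the 10 for Pmvk and Sqle, at 1.22 and 1.09 on the log2 scale, and was not tested. With the high-fat diet, by the same 1.5-fold, all 6 measured exocrine pancreas genes and 2 of 3 stomach surface genes were lower in A/J, while 5 of 6 and 3 of 3 were higher in C57BL/6J. Of 4 T cell markers, 3 were lower with high-fat in C57BL/6J, and 2 of 4 smooth muscle markers were lower in A/J. Of 3 B cell markers, 2 were lower with high-fat in C57BL/6J and 1 was higher in A/J. Of 4 markers of proliferating crypt cells, 1 (Mcm2) was higher with high-fat in both strains, at log2 ratios of 1.08 in A/J and 0.81 in C57BL/6J. Of 2 Paneth cell markers, 1 (Mmp7) was higher with high-fat in A/J. Their part in the ratios was not tested, and all 4 enterocyte markers differed by less than 1.5-fold.

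**Figure D2:**
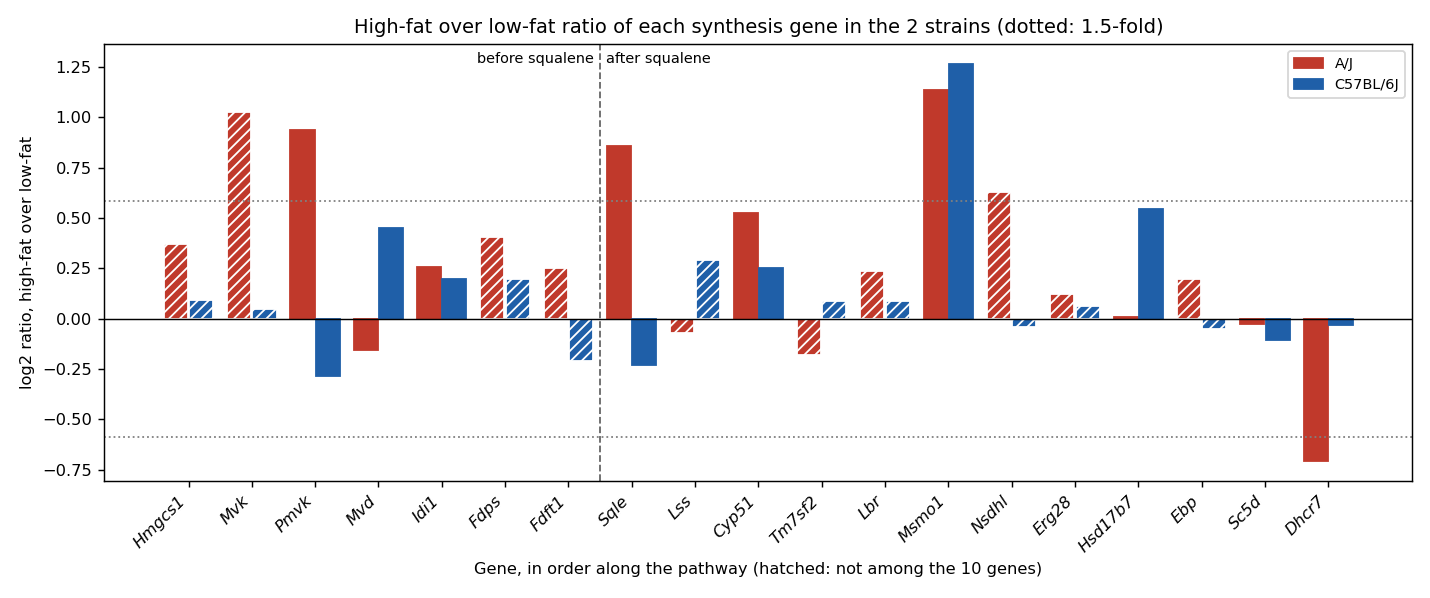
Log2 ratio of high-fat over low-fat in A/J and in C57BL/6J (1 array each side) for 19 synthesis genes in pathway order, with genes outside the 10 hatched and 1.5-fold dotted. Msmo1 is past 1.5-fold in both strains, Mvk, Pmvk, Sqle and Nsdhl only in A/J, where the Mvk bar is a lower bound, and Dhcr7 is past it downwards in A/J.

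The list of the pathway held 10 other measured genes, and 0 of them differed by 1.5-fold with diet in both strains as Msmo1 did. In A/J 2 of them were higher with high-fat by 1.5-fold or more and 0 lower, and in C57BL/6J 0 were either. Among all measured genes, 4.99% were higher and 4.7% lower in A/J, and 5.13% and 4.63% in C57BL/6J. The share past 1.5-fold in both strains was not counted, so 0 of 10 does not set these genes apart. Mvk, the first kinase on mevalonate, had 204 on A/J high-fat and was under the floor on A/J low-fat, at least 2.04-fold higher, and it had 192 on C57BL/6J high-fat against 186 on C57BL/6J low-fat. Nsdhl, the decarboxylase that acts between Msmo1 and Hsd17b7, had 1154 on A/J high-fat against 746 on A/J low-fat, while C57BL/6J had 879.6 on high-fat against 905 on low-fat. Hmgcs1, which makes the precursor of mevalonate, had 5703 on A/J high-fat against 4401 on A/J low-fat, while C57BL/6J had 6583 on high-fat against 6176 on low-fat. Of the 19 synthesis genes, 9 of the set of 10 and these 10, A/J low-fat was the lowest of the 4 arrays for 10, while it was lowest for 24.9% of all measured genes. The 10 were Pmvk, Sqle, Cyp51, Hmgcs1, Mvk, Fdps, Fdft1, Lbr, Nsdhl and Ebp, and the other 9 were Msmo1, Mvd, Idi1, Hsd17b7, Sc5d, Dhcr7, Lss, Tm7sf2 and Erg28. Among the 9 enzymes of the described set alone, A/J low-fat was lowest for 3, and C57BL/6J low-fat was lowest for 3 as well. In the limma fit 0 of these other 10 genes changed with diet, and at an unadjusted p under 0.05 there was 1 higher (Mvk) and 0 lower, where 391 and 360 of the 8036 measured genes were.

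The comparison of strains split the 10 genes in both directions. A/J was lower in Pmvk, Sqle, Cyp51, Mvd and Sc5d and higher in Hsd17b7, Dhcr7 and Stard4 on both diets by the brightest probe sets, though not all by 1.5-fold. The other probe set of Hsd17b7 was lower in A/J on both diets, and the signs of Pmvk and Sqle on high-fat turned without scaling. Msmo1 differed by 1.06-fold on high-fat and 1.03-fold on low-fat, and Idi1 by 1.17-fold and 1.12-fold, with signs that depended on the setting except for Msmo1 on low-fat. Against the limma threshold, Stard4 was higher in A/J, with a log2 effect of 1.06 and an SE of 0.211 (limma adjusted p = 0.00875). Sc5d was lower in A/J, at -1.01 (SE 0.195, limma adjusted p = 0.00725), and Cyp51 at -0.71 (SE 0.198, limma adjusted p = 0.0487). These are 1 gene called higher and 2 called lower, where 3.83% of measured genes were called higher in A/J and 3.68% lower, 7.52% in all. At an unadjusted p under 0.05 limma gave 3 higher and 5 lower, where 977 of the 8036 measured genes were higher and 752 lower. Among them Mvd at -0.75 (limma adjusted p = 0.0545), Pmvk at -0.89 (limma adjusted p = 0.0609) and Hsd17b7 at 0.73 (limma adjusted p = 0.0543) lay just outside the adjusted threshold of 0.05. Signals of Stard4 were 3664 and 3003 on the A/J arrays and 1439.6 and 1756 on the C57BL/6J arrays, high-fat first in each pair, and its other probe set gave 2555 and 2156 against 1402 and 1202. In both probe sets the A/J arrays thus lay above the C57BL/6J arrays. The probe sets read the same 4 RNA pools, and the share of measured genes that separate the strains in this way was not counted. The separation alone therefore does not set Stard4 apart. Stard4 and Sc5d were each called in 7 of the 14 alternatives. Cyp51 was called in 2 of the 14, and its adjusted p was 0.0580 with quantile normalization. With all probe sets averaged, the Cyp51 effect was -0.36 (limma adjusted p = 0.2175). Another Cyp51 probe set was 1.38-fold lower in A/J on high-fat. On low-fat it was under the floor in A/J, at 93.2, and so at least 1.23-fold lower. A further Cyp51 probe set was under the floor on all 4 arrays.

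**Figure D3:**
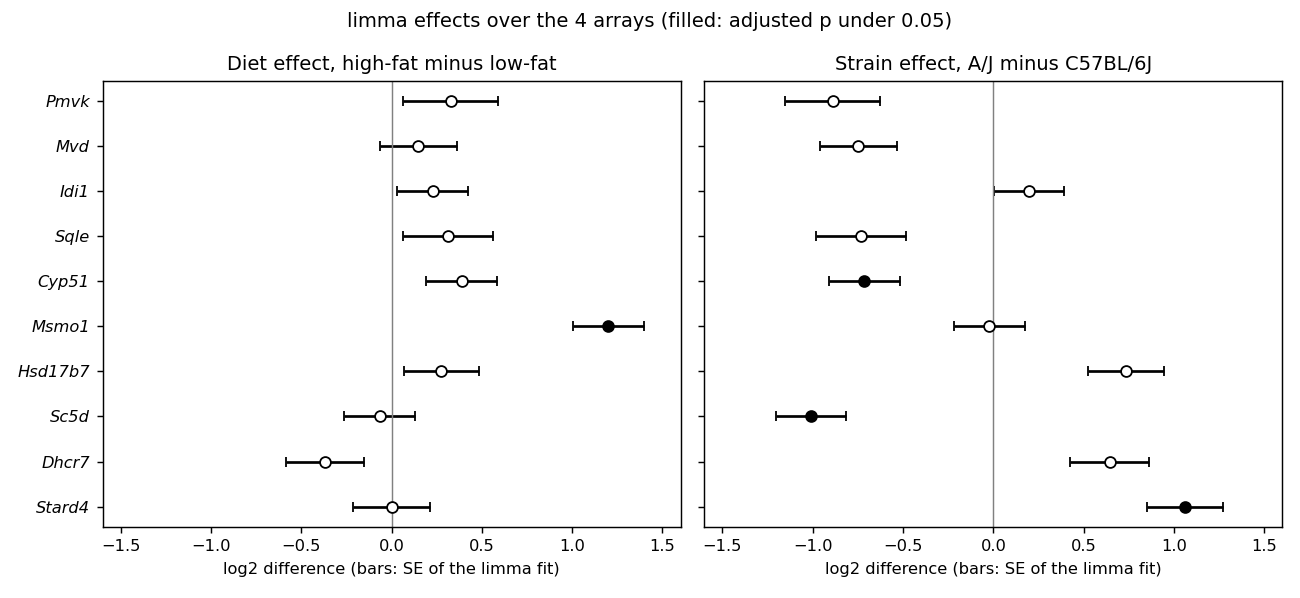
Diet effect (high-fat minus low-fat) and strain effect (A/J minus C57BL/6J) on the log2 scale from the limma fit over the 4 arrays for the 10 genes, with bars of 1 SE and filled points for an adjusted p under 0.05. Msmo1 is filled for diet, and Cyp51, Sc5d and Stard4 for strain.

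On the low-fat diet, A/J exceeded C57BL/6J by 1.5-fold or more in 3 of the 10 genes and was below it in 4, where 10.9% of measured genes were higher and 9.23% lower, 20.1% in all. The lower ones were Pmvk at 2.83-fold, Sqle at 2.43-fold, Sc5d at 2.07-fold and Cyp51 at 1.80-fold, and the higher ones were Hsd17b7 at 2.003-fold, Dhcr7 at 1.97-fold and Stard4 at 1.71-fold. On the high-fat diet 1 was higher, Stard4 at 2.55-fold, and 2 were lower, Mvd at 2.07-fold and Sc5d at 1.96-fold, against 8.37% higher and 6.88% lower among measured genes, 15.3% in all. Pmvk and Sqle were 1.21-fold and 1.14-fold lower in A/J there, with signals of 290.1 and 984 on A/J high-fat against 352 and 1121 on C57BL/6J high-fat. The low-fat ratios of Pmvk and Sqle and their diet ratios in A/J share the A/J low-fat array, so they are not separate evidence. The median log2 ratio of the 10 genes was -0.14 on high-fat and -0.20 on low-fat, against 0.04 and 0.02 over all measured genes. For the early enzymes it was -0.28 on high-fat and -0.44 on low-fat, and for the late ones -0.14 and -0.40. In the other 10 synthesis genes, A/J was lower by 1.5-fold in 4 on low-fat (Mvk, Fdps, Fdft1 and Lbr) and in 0 on high-fat, and higher in 0 on either diet. In limma 0 of them differed by strain, with 0 higher and 2 lower at an unadjusted p under 0.05, where 977 and 752 of the 8036 measured genes were. On high-fat all 6 exocrine pancreas genes and 3 of 3 stomach surface genes were lower in A/J by 1.5-fold or more, and 3 of 3 B cell markers were higher, with a summed signal of 1034 in A/J against 506 in C57BL/6J. On low-fat 2 of 3 stomach surface genes, 2 of 4 smooth muscle markers and 1 of 3 B cell markers were higher in A/J by as much, 3 of 4 T cell markers were lower, and the 18S signal was 218 in A/J against 11010 in C57BL/6J. Mcm2 and Mmp7 were also lower in A/J on low-fat by 1.5-fold or more, and 1 of 4 smooth muscle markers was higher in A/J on high-fat. Their part in the ratios was not tested.

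**Figure D4:**
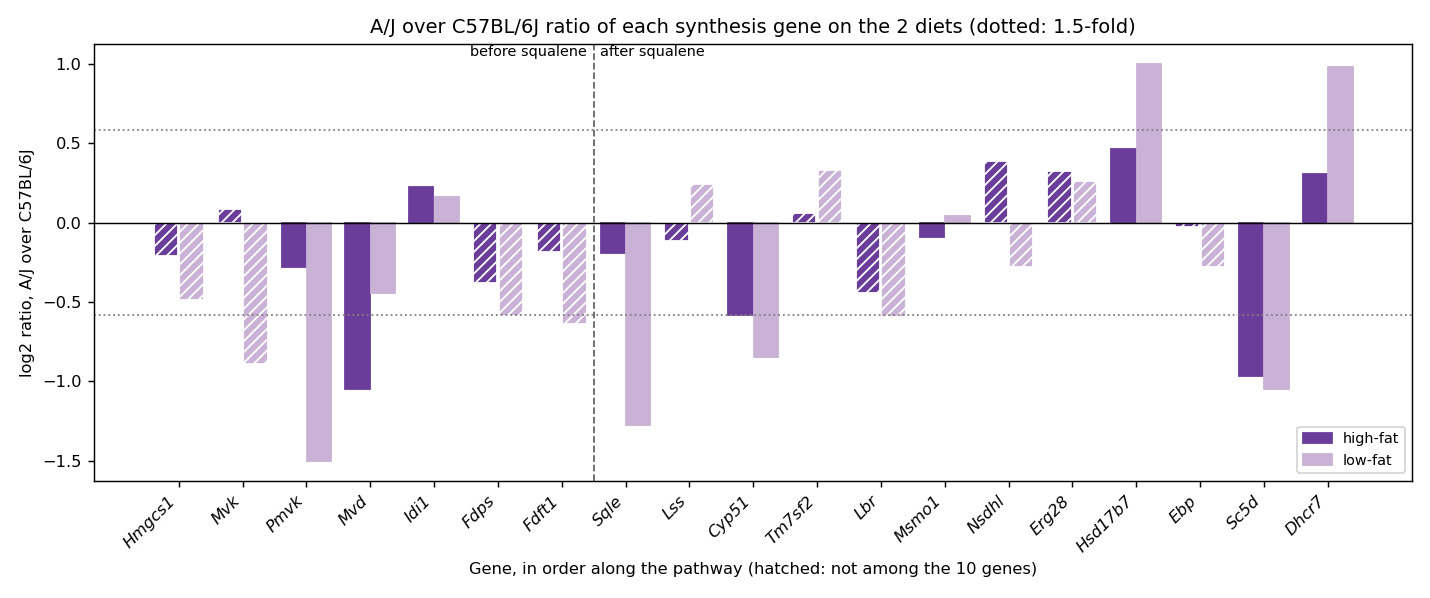
Log2 ratio of A/J over C57BL/6J on the high-fat and on the low-fat diet (1 array each side) for 19 synthesis genes in pathway order, with genes outside the 10 hatched and 1.5-fold dotted. Sc5d lies near -1 on both diets, Pmvk and Sqle lie past 1.5-fold only on low-fat, and Mvd only on high-fat; the low-fat bar of Mvk is a bound.

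The probe sets did not always tell the same story about the strains. For Hsd17b7 on low-fat, the brightest probe set was 2.003-fold higher in A/J, with 565 in A/J against 282 in C57BL/6J, and the other was 1.66-fold lower, with 217 in A/J against 359 in C57BL/6J. On high-fat the signs were opposite too, at 1.38-fold higher in A/J for the brightest and 1.31-fold lower for the other. Of 2505 genes with 2 probe sets wholly above the floor, 0.359% differed between them by as much as Hsd17b7 on low-fat. For Sc5d on low-fat, the other probe set was 1.51-fold higher in A/J, at 391 in A/J against 259 in C57BL/6J, opposite to the 2.07-fold lower of the brightest, and 0.519% of genes differed by as much. On high-fat the 2 Sc5d probe sets had the same sign, at 1.96-fold and 1.39-fold lower in A/J. With all probe sets averaged, the strain effect of Sc5d was -0.47 (limma adjusted p = 0.190) and was no longer called. For Idi1 on high-fat the dimmer probe set was under the floor in A/J, at 90.8 against 212 in C57BL/6J, and so at least 2.12-fold lower, while the brighter one was 1.17-fold higher. Mvd and Stard4 had probe sets of the same sign on both diets.

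Of 5 measured genes of SREBP processing, 0 differed by 1.5-fold in any comparison by the brightest probe set and limma called 0 for diet or strain, with 1 higher for diet and 0 for strain at an unadjusted p under 0.05. At that cut limma gave 391 of the 8036 measured genes higher and 360 lower for diet, and 977 and 752 for strain. Insig2, which holds the SREBP complex back, had 1055 on A/J high-fat against 796 on C57BL/6J high-fat by its brightest probe set. Its other 2 probe sets passed 1.5-fold there, at 1214 in A/J against 666 in C57BL/6J and at 279 in A/J against 131 in C57BL/6J. Srebf2, which encodes SREBP-2, had 539.9 on A/J high-fat against 668 on A/J low-fat, while C57BL/6J had 766 on high-fat against 759.6 on low-fat. Its other probe set was higher on high-fat in both strains, at 662 in A/J on high-fat against 553 on low-fat and 539.9 in C57BL/6J on high-fat against 475 on low-fat, so the direction in A/J depends on the probe set. Srebf1, the relative that drives fatty acid synthesis, had 1677 on A/J high-fat against 1237 on A/J low-fat, while C57BL/6J had 1313 on high-fat against 979 on low-fat, a diet effect of 0.43 (limma adjusted p = 0.516). Of 5 measured genes of the non-sterol branches from mevalonate, 0 differed by 1.5-fold in any comparison. Among all measured genes, 9.69% passed 1.5-fold with diet in A/J and 9.76% in C57BL/6J. Between the strains 20.1% did so on low-fat and 15.3% on high-fat. With 5 genes in each list, counts of 0 do not show that these genes were steadier than others.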

How the data were processed

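Intestinal mucosa RNA pools of 4 groups were measured on 1 Affymetrix Mouse Expression Array 430A each. The deposited values are linear intensity values, 1 per probe set, which Microarray Suite 5.0 calculated under default settings, per the labels' protocols. No source used here names a scaling target. The trimmed means of the arrays lay between 147 and 184.

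Of 22690 probe sets, 64 controls were left out. By platform annotation, 20380 of the remaining 22626 have 1 gene, 691 several and 1555 none, and probe sets of 1 gene were kept. Gene numbers of 20351 matched RefSeq, which changed 0 symbols. Each array was multiplied to a mean of 500 after trimming 2% at each end. Values under 100 were raised to 100 before taking log2. Each gene was represented by its probe set with the highest mean signal. A gene was counted between 2 arrays at 1.5-fold or more.

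Diet and strain effects were fitted with limma 3.58.1 in R 4.3.3 over all 8036 measured genes, with additive terms, 1 residual degree of freedom and Benjamini-Hochberg adjustment at 0.05. The fit was also run on simulated data with independent noise on each array and no added strain-by-diet difference. That run cannot show whether the p-values hold for these arrays. Other steps used Python 3.11.15, numpy 2.4.6, pandas 2.3.3 and matplotlib 3.10.9. The 10 genes and the lists were chosen with earlier results of these data known. All 10 were named, list genes by size of difference or call, with up to 6 others as levels, and the 5 genes outside the lists nearest to the mean profile of the late enzymes. Alternatives were quantile normalization, no scaling, floors of 50 and 200, a pseudocount of 50, the mean of all probe sets, no shared probe sets, no filter, an intensity trend, 1 factor and leaving out each array. Precision is limited by the number of arrays.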

Additional observations from a re-analysis of the deposited data

Results flagged for a closer look

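Pmvk and Sqle had diet ratios of opposite direction in the strains, higher on high-fat in A/J and lower in C57BL/6J. In A/J, 1.06% and 1.39% of measured genes had as high or higher a ratio. The C57BL/6J ratios were ordinary in size, as 18.7% and 23.7% of measured genes had as low or lower a ratio. The log2 diet ratio in A/J exceeded that in C57BL/6J by 1.22 for Pmvk and by 1.09 for Sqle. Each side rests on 1 array per diet, and the difference was not tested. In both genes A/J low-fat was the lowest array, at 151 for Pmvk and 543 for Sqle, and each gene has 1 probe set. The ratio in A/J stayed at least 1.5-fold for Sqle in all 7 alternatives of scaling, floor and probe set. For Pmvk it did so in 6 of 7, with a smallest value of 1.45-fold. With 1 probe set each, neither averaged probe sets nor the removal of shared ones could change these ratios. The floors could not change that of Sqle either, as its lowest signal, 543, lies above them. Only quantile normalization, no scaling and the pseudocount could change it, and for Pmvk the higher floor could as well.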

How the results depend on the processing

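The diet ratio of Msmo1 kept its side of 1.5-fold under the settings, while ratios of genes with disagreeing probe sets and the limma calls did not. Msmo1 has 1 probe set, with signals above 200 on all 4 arrays. Floors, averaged probe sets and the removal of shared probe sets therefore cannot change its ratio. Only quantile normalization, no scaling and the pseudocount could. Msmo1 was between 2.13-fold and 2.20-fold higher on high-fat in A/J and between 2.17-fold and 2.41-fold in C57BL/6J in all 7 alternatives. Over the same 7, Sc5d lay between 1.02-fold and 1.58-fold lower on high-fat in A/J and between 1.17-fold and 2.07-fold lower in A/J on low-fat. Hsd17b7 lay between 1.10-fold and 2.27-fold higher in A/J on low-fat, and Idi1 between -0.43 and 0.51 on the log2 scale for A/J over C57BL/6J on high-fat. The diet ratios of Mvd and Hsd17b7 in A/J and the strain ratio of Idi1 on either diet changed sign under 1 setting each. With all probe sets averaged, 2 genes instead of 1 were at least 1.5-fold lower on high-fat in A/J, and 2 instead of 4 were lower in A/J on low-fat. Leaving the arrays unscaled moved the median of all genes to -0.15 for diet in C57BL/6J, and to 0.32 on high-fat and 0.20 on low-fat for A/J over C57BL/6J. With it the median of the 10 genes changed sign, to -0.066 for diet in C57BL/6J and to 0.14 for A/J over C57BL/6J on high-fat. As with scaling, the first lay above and the second below the median of all genes. There 3 genes instead of 1 were higher in A/J on high-fat. Without scaling the high-fat strain ratios of Pmvk, Sqle and Msmo1 turned sign. Counts of genes called by limma for diet fell to 0 without scaling, with floors of 50 and 200, with averaged probe sets, with no filter and with 1 factor. Counts called higher in A/J were 3 without scaling and with an intensity trend, 2 with the pseudocount, and 0 with a floor of 200, with no filter and with 1 factor. Counts called lower in A/J were 5 with the trend, 4 with the pseudocount, 1 with quantile normalization, without scaling, with a floor of 50, without shared probe sets and with 1 factor, and 0 with a floor of 200, averaged probe sets and no filter. The causes were not tested. Leaving out any array, in fits with 1 factor, gave between 0 and 0 calls in each direction for diet and for strain. The diet effect of Msmo1 was called in 4 of 14 alternatives, the strain effects of Sc5d and Stard4 in 7 of 14 each and that of Cyp51 in 2 of 14. No paired analysis was possible because each group has 1 array and the labels give no replicate numbers. With 1 array per group, no spread between pools could be estimated.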

Other observations

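Outside synthesis, diet calls fell on Abca1 among the export genes. Abca1, the pump that loads cholesterol onto lipoproteins, had 275 on A/J high-fat against 465 on A/J low-fat, while C57BL/6J had 254 on high-fat against 765 on low-fat. It was the 1 of 6 measured genes of esterification and efflux that limma called for diet (-1.17, SE 0.229, limma adjusted p = 0.0419). Among all measured genes, limma called 0.61% for diet and 7.52% for strain. Whether the calls of this paragraph hold under the alternative settings is not reported here. Another Abca1 probe set had 154 on A/J high-fat against 170.2 on A/J low-fat, while C57BL/6J had 134 on high-fat against 237 on low-fat. Abcg1, a related pump, had a log2 diet ratio of -0.57 in A/J and -0.97 in C57BL/6J, with a diet effect of -0.77 (limma adjusted p = 0.171). Abcg5 and Abcg8, which together return sterols to the gut lumen, were 1.38-fold and 1.34-fold lower in C57BL/6J and 1.22-fold and 1.13-fold lower in A/J, and neither passed the test. Nr1h3, a sterol-sensing receptor, had 515 on A/J high-fat against 385 on A/J low-fat, while C57BL/6J had 586 on high-fat against 419 on low-fat (limma adjusted p = 0.493). Among 7 measured genes of uptake, Scarb1, a lipoprotein receptor, had 3553 on A/J high-fat against 9018 on A/J low-fat, while C57BL/6J had 863 on high-fat against 554 on low-fat, and limma called it for strain (3.03, limma adjusted p = 0.000179). Of 7 measured genes of fatty acid synthesis, limma called 1 for diet, Me1, which makes NADPH. Me1 had 2712 on A/J high-fat against 381 on A/J low-fat, while C57BL/6J had 1087 on high-fat against 179.9 on low-fat (limma adjusted p = 7.82e-05). For strain, limma called Me1 (1.20, limma adjusted p = 0.0026) and Scd1 (0.73, limma adjusted p = 0.0488) higher in A/J. Fasn, which makes fatty acids, had 452 on A/J high-fat against 364 on A/J low-fat, while C57BL/6J had 441 on high-fat against 327 on low-fat, with a limma adjusted p of 0.624.

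By Euclidean distance of centred log2 signals over the 4 arrays, among 7141 genes outside the lists, Efna1, Xrcc6, Brd1, Ints8 and Lrrk1 lay nearest to the mean profile of the 6 late enzymes, at 0.0345 to 0.0459. The late enzymes themselves lay at 0.555 (Cyp51) to 1.11 (Dhcr7) from their own mean, so the mean profile describes none of them closely.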
